A study of Rattus norvegicus with 8 samples.

Results

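The genes described here encode the FOS and JUN proteins, whose dimers form the transcription factor AP-1, and the zinc finger factors of the EGR family. They were chosen by symbol (Fos, Fosb, Fosl1, Fosl2, Jun, Junb, Jund, Egr1, Egr2 and Ier2), and 9 of the 10 had a row in the table of 32662 genes. The expression of Ier2 was thus not analysed here, and only its promoter was searched. RNA was sequenced from primary oligodendrocyte precursor cells, the dividing glia that give rise to myelinating oligodendrocytes, kept without oxygen and glucose for 6 h (oxygen glucose deprivation, OGD, 4 libraries) or not deprived (Control, 4 libraries). Both groups came from the cerebral cortex of Sprague Dawley rats aged 1 to 2 days. The cells were the non-adherent fraction of mixed glial cultures grown in 20% serum, then kept for 4 to 5 days with 2% B27, 2 mM glutamine and the growth factors PDGF and FGF at 10 ng/ml of each. Nothing in the labels says that the libraries of a group came from separate cultures, so that the p-values below cover only how these libraries vary, which may be technical.

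Values are FPKM, fragments counted relative to the length of a gene and the size of its library, so levels of different genes are compared per length. Relative sequencing depth, read from the steps between low values, ran from 0.816 to 1.18 in OGD libraries and from 1 to 1.11 in Control libraries, with Control replicate 1 set to 1. Total fragment numbers are unknown. The precursor label was checked against 9 marker genes, all of which were expressed. Olig2 averaged 286 FPKM in OGD and 297 FPKM in Control libraries. By the test described below, 6 of the 9 fell under OGD, where 26.8% of all tested genes fell and 22.7% rose. Of 12 microglial markers 11 fell and 0 rose (2 of the 11 met the filter described below only through Control libraries), and their summed level was 71.6 to 130.2 FPKM in OGD libraries, against 211.6 to 344.5 FPKM in Control libraries, with none at 0 in every library. The summed level of 8 neuronal markers was 263.5 to 342.2 FPKM in OGD and 272 to 335 FPKM in Control libraries. Map2 held most of it, with a mean of 197 FPKM in OGD and 225 FPKM in Control. Astrocytic markers (8) summed to 118.4 to 126.9 FPKM in OGD and 127.2 to 144.8 FPKM in Control libraries. Slc1a3 (mean 60.1 FPKM in OGD and 63.4 FPKM in Control) and Aldoc (49.2 and 54.0 FPKM) held most of it. Gfap averaged only 0.480 FPKM in OGD and 2.16 FPKM in Control, and Aqp4 0.342 and 0.343 FPKM. Of 10 vascular and stromal markers with a row, 0 reached the filter and 4 were at 0 in every library. The part of microglial, neuronal or astrocytic RNA in the values below was not tested. In such bulk RNA, fewer cells of a type and less RNA per cell cannot be told apart.

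Immediate early genes are transcribed within minutes of a signal, without new protein synthesis. Growth factors such as PDGF and FGF act through ERK, a MAP kinase, on ETS factors that sit with serum response factor (SRF) on CArG boxes in the promoters of Fos and Egr1. Stress signals act through the kinases JNK and p38 on JUN and ATF2, which switch on Jun. FOS proteins need a JUN partner to bind DNA, whereas JUN proteins can also pair with each other.

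After 6 h of OGD the genes split. Jun rose, Egr1, Fos and Fosl1 fell, and Junb and Jund did not pass the test. These 6 had at least 1 FPKM in at least 4 libraries and entered a limma fit of log2(FPKM + 1), with p-values adjusted by Benjamini-Hochberg over all 11149 genes tested. The 4 calls among 6 stand against 49.5% of all tested genes called in either direction, 22.7% higher and 26.8% lower in OGD, so the count alone sets these genes little apart. For the same 4 the groups did not overlap, as for 44.7% of tested genes (20.7% with OGD above and 24.1% with OGD below). Of the 4, Fosl1 reached 1 FPKM mainly in Control libraries, so its entry into the test favoured a fall. In size, 2 of the 6 (Jun and Egr1) were called and at least 2-fold apart on the FPKM + 1 scale, against 4.19% of all tested genes. Counting Jun itself, 48 genes rose by at least as much as Jun, and counting Egr1 itself, 14 fell by at least as much as Egr1. Fosb, Fosl2 and Egr2 were under the filter. In a fit without a filter, which called 32.7% of 16909 genes, Egr2 fell, Fosb rose and Fosl2 did not pass.

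**Figure D1:**
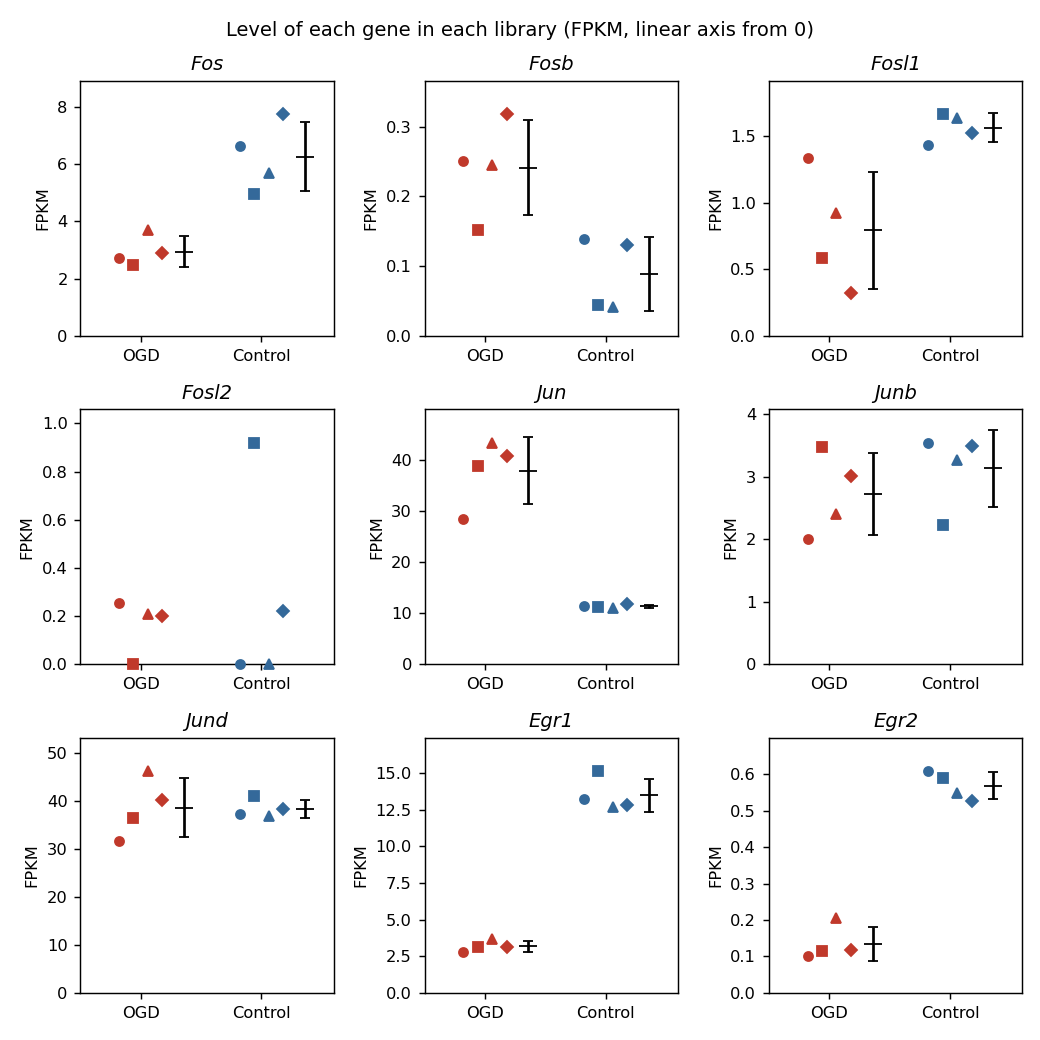
FPKM (linear axis from 0) of each gene in the 4 OGD libraries (red, left) and the 4 Control libraries (blue, right). Circles, squares, triangles and diamonds are replicates 1 to 4, and bars are the mean and SD, left out for Fosl2 because it was at 0 in 3 libraries. The groups did not overlap for Fos, Fosb, Fosl1, Jun, Egr1 and Egr2.

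Fos (ENSRNOG00000008015), the founding FOS protein, was at 2.71, 2.46, 3.70 and 2.90 FPKM in OGD libraries 1 to 4, against 6.63, 4.96, 5.70 and 7.74 FPKM in Control libraries 1 to 4. The highest OGD library stayed below the lowest Control library. The mean was 2.94 ± 0.533 FPKM in OGD and 6.26 ± 1.20 FPKM in Control (SD, n = 4 each), and the log2 difference, OGD minus Control, was -0.88 ± 0.14 (SE; limma, adjusted p = 0.000475).

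Fosl1 (ENSRNOG00000020552), which encodes FRA1, a FOS relative that lacks the transactivation domain of FOS, was at 1.34, 0.586, 0.920 and 0.325 FPKM in OGD libraries, against 1.43, 1.66, 1.64 and 1.52 FPKM in Control libraries. OGD replicate 1 was just under the lowest Control library and OGD replicate 4 was far below. The log2 difference was -0.55 ± 0.17 (SE; limma, adjusted p = 0.0216). It passed the filter through the 4 Control libraries and OGD replicate 1. The Control libraries alone were enough, and OGD replicates 2 to 4 were under 1 FPKM, so the filter favoured a fall. The call was lost with quantile normalization (adjusted p = 0.0688), without OGD replicate 2 (0.0513), Control replicate 2 (0.0513) or Control replicate 3 (0.0518), and without Control replicate 1 and OGD replicate 4 together (0.0639), in a range of 0.00579 to 0.0688 over 16 alternatives.

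After correction for relative depth, the values of the lower genes were whole multiples of a common step, within 0.05 of a whole number. If a step is 1 fragment, Fosl1 rested on 13, 5, 11 and 4 fragments in OGD libraries and on 15, 18, 19 and 17 in Control libraries. Fosb (ENSRNOG00000046667), known for its stable splice form in neurons, rested on 5, 2.67, 6 and 8 steps in OGD libraries and on 3, 1, 1 and 3 in Control libraries. OGD replicate 2 was the exception that was not whole.

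In FPKM, Fosb was at 0.250, 0.152, 0.244 and 0.318 in OGD libraries, against 0.139, 0.0450, 0.0419 and 0.131 in Control libraries. The groups did not overlap, and Fosb was thus on the opposite side to Fos. In the fit without a filter its log2 difference was 0.19 ± 0.06 (SE; limma, adjusted p = 0.0350). That call was lost without OGD replicate 1, 3 or 4 (adjusted p = 0.0758, 0.0736 and 0.0839), without Control replicate 2 or 3 (0.0918 and 0.0966), without Control replicate 1 and OGD replicate 4 together (0.0828) and with a pseudocount of 0.1 (0.0504), in a range of 0.0226 to 0.0966 over 10 alternatives. Fosl2 (ENSRNOG00000052357), which encodes FRA2, was listed at 0.257, 0, 0.209 and 0.203 FPKM in OGD libraries and at 0, 0.919, 0 and 0.223 FPKM in Control libraries. In steps these were 1, 0, 1 and 1 in OGD libraries and 0, 4, 0 and 1 in Control libraries, so a difference was not detectable at this depth (adjusted p = 0.763 in the limma fit without a filter).

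Jun (ENSRNOG00000026293), the JUN protein with the strongest transactivation, was at 28.4, 38.9, 43.4 and 40.8 FPKM in OGD libraries, against 11.4, 11.2, 11.0 and 11.8 FPKM in Control libraries. The Control libraries lay close together, and the lowest OGD library was far above them. The mean was 37.9 ± 6.56 FPKM in OGD and 11.4 ± 0.355 FPKM in Control (SD, n = 4 each). The log2 difference was 1.64 ± 0.11 (SE; limma, adjusted p = 2.02e-06), or 3.11-fold on the FPKM + 1 scale.

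Junb (ENSRNOG00000042838), a weaker activator that can oppose JUN, was at 2.00, 3.47, 2.40 and 3.01 FPKM in OGD libraries, against 3.54, 2.23, 3.27 and 3.49 FPKM in Control libraries. The groups overlapped, with a log2 difference of -0.15 and a 95% confidence interval of -0.50 to 0.19 (limma, adjusted p = 0.438). Jund (ENSRNOG00000019568), the JUN protein that most cells express without stimulation, was at 31.7, 36.5, 46.2 and 40.1 FPKM in OGD libraries, against 37.3, 41.0, 36.8 and 38.3 FPKM in Control libraries. Its groups overlapped too, and the interval of -0.22 to 0.22 around a log2 difference of -0.001 leaves out changes of the size seen for Jun (limma, adjusted p = 0.994).

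**Figure D2:**
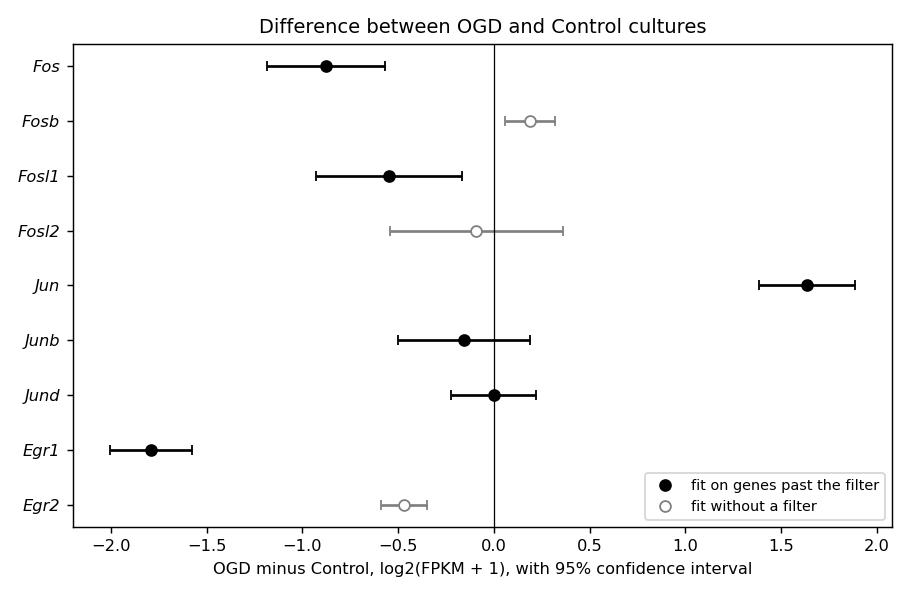
Difference between OGD and Control libraries in log2(FPKM + 1), OGD minus Control, with 95% confidence intervals from limma. Filled points are genes past the filter and open points are genes under it, taken from the fit without a filter, where differences of low genes are compressed. Jun lies at 1.64 and Egr1 at -1.79, while the intervals of Junb, Jund and Fosl2 include 0.

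Egr1 (ENSRNOG00000019422), a zinc finger activator that follows ERK activity, was at 2.76, 3.14, 3.68 and 3.16 FPKM in OGD libraries, against 13.3, 15.1, 12.7 and 12.9 FPKM in Control libraries. The groups stood wide apart relative to the spread within each. The mean was 3.19 ± 0.379 FPKM in OGD and 13.5 ± 1.12 FPKM in Control (SD, n = 4 each), with a log2 difference of -1.79 ± 0.10 (SE; limma, adjusted p = 3.3e-07).

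Egr2 (ENSRNOG00000000640), also called Krox20 and known as a regulator of myelination in Schwann cells, was at 0.101, 0.115, 0.205 and 0.119 FPKM in OGD libraries, against 0.608, 0.589, 0.548 and 0.527 FPKM in Control libraries. In steps these were 2, 2, 5 and 3 in OGD libraries and 13, 13, 13 and 12 in Control libraries, 12 against 51 in all. Every OGD library was below every Control library. The ratio of mean FPKM, OGD over Control, was 0.237 for Egr2 and 0.236 for Egr1. The log2 difference of Egr2 in the fit without a filter was -0.47 ± 0.05 (SE; limma, adjusted p = 0.000302), a value compressed by the pseudocount of 1. With a pseudocount of 0.1 it was -1.53 (adjusted p = 0.00143, in a range of 0.000748 to 0.0042 over 10 alternatives).

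The promoters of the pair that fell together, and of Jund, which did not pass the test, are shown to set their motifs beside these values. They are RefSeq sequences of build GRCr8, from 250 bases before to 50 bases after the annotated start, for Egr1 at chr18:26736828-26737127 (plus strand), Egr2 at chr20:21054392-21054691 (minus strand) and Jund at chr16:18769722-18770021 (minus strand). Capitals mark CArG boxes, the cAMP response element TGACGTCA and its arm TGACG, and the EGR site GCGNGGGCG, each searched on both strands.
Egr1: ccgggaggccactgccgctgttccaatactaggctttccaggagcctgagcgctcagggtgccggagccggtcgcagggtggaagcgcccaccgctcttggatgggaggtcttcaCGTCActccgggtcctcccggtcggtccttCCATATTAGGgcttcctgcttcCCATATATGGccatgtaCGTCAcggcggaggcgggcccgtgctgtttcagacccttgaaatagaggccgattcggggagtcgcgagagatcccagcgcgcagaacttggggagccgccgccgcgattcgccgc
Egr2: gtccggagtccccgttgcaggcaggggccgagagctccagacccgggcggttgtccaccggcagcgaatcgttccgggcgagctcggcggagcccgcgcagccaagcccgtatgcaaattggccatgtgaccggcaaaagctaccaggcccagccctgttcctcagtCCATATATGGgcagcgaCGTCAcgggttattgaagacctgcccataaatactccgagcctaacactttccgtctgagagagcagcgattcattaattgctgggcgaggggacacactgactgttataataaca
Jund: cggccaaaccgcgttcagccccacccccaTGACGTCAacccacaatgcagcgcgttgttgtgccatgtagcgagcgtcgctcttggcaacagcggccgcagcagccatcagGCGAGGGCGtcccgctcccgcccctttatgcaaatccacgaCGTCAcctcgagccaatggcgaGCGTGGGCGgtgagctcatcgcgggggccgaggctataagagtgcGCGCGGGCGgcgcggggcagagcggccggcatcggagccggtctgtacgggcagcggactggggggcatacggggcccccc

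Egr1 held 2 CArG boxes, which began 105 and 83 bases before the start, and Egr2 held 1, which began 83 bases before it, with the same letters as the nearer box of Egr1. In both genes an arm of the cAMP response element began 66 bases before the start. Fos and Jun had no entry in the promoter table, so their promoters were not searched for any of these motifs. Of the 8 members in the promoter table, 2 held a CArG box (Egr1 and Egr2), as did 1.64% of the 33469 promoters of the same length. The whole element TGACGTCA was in 2 of the 8 (Jund and Ier2) and in 1.83% of all promoters, its arm TGACG in 6 of the 8 and in 21.2%. The EGR site was in 2 of the 8 (Fosl2 and Jund, which held 3 matches) and in 4.98%. The AP-1 site TGAGTCA was in 0 of the 8 and in 4.63%, and the hypoxia response core ACGTG was in 1 of the 8 (Egr1, overlapping its upstream arm TGACG) and in 19.3%. A match is a string of letters, not a shown site.

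The order of the levels differed between the groups. In OGD libraries Jund (38.6 ± 6.12 FPKM) and Jun (37.9 ± 6.56 FPKM) led with overlapping ranges, followed by Egr1, Fos and Junb (3.19, 2.94 and 2.72 FPKM), each overlapping the next, and then by Fosl1 (0.792 ± 0.438 FPKM). In Control libraries Jund led (38.3 ± 1.86 FPKM), followed by Egr1, Jun, Fos, Junb and Fosl1, and none of these overlapped its neighbour.

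Within the summed FPKM of the 7 FOS and JUN genes, Jun held 42.6%, 47.4%, 44.7% and 46.5% in OGD libraries, against 18.8%, 18.1%, 18.8% and 18.7% in Control libraries. The FOS family held 6.83%, 3.90%, 5.22% and 4.27% in OGD libraries, against 13.6%, 12.2%, 12.6% and 15.2% in Control libraries. The summed level itself was 66.6 to 97.0 FPKM in OGD libraries and 58.4 to 63.2 FPKM in Control libraries. The share of Jun was higher, and that of the FOS family lower, in each OGD library than in any Control library. As all are parts of the same total, a rise of Jun lowers the other shares. That of Jund was 44.5% to 47.6% in OGD and 60.5% to 66.1% in Control libraries, though Jund did not pass the test. The FOS family sum itself was 3.20 to 5.07 FPKM in OGD and 7.38 to 9.62 FPKM in Control libraries.

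**Figure D3:**
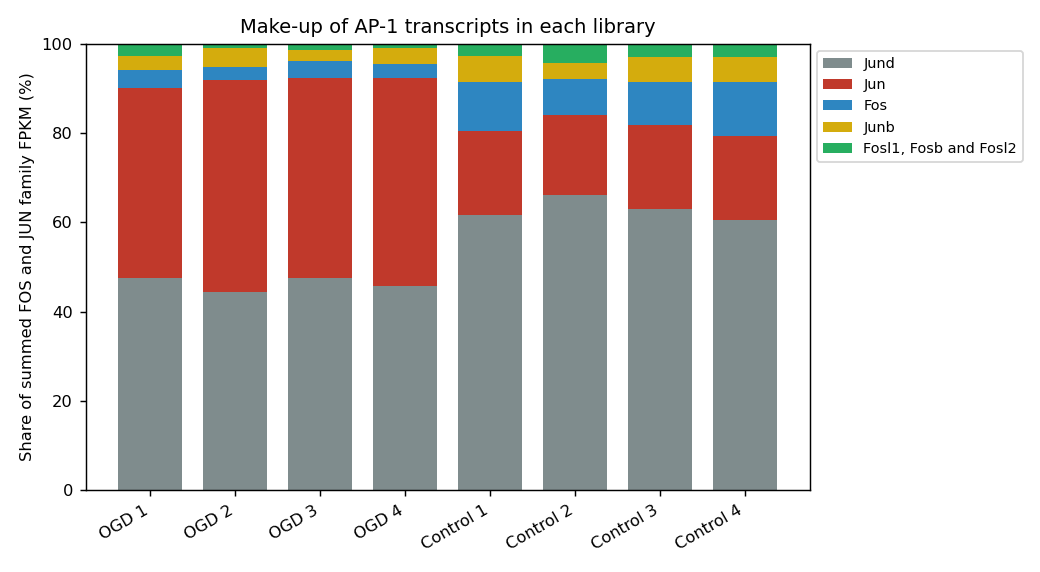
Share (%) of each gene in the summed FPKM of the FOS and JUN families, for OGD libraries 1 to 4 (left) and Control libraries 1 to 4 (right). The Jun segment is 42.6% to 47.4% in OGD and 18.1% to 18.8% in Control libraries.

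Ratios within a library, taken on the FPKM + 1 scale, depend little on library scaling. The log2 ratio of Jund to Jun averaged 0.03 ± 0.11 in OGD and 1.67 ± 0.08 in Control libraries (SD, n = 4 each; difference -1.64). That of Junb to Jun averaged -3.38 ± 0.23 in OGD and -1.59 ± 0.22 in Control libraries (difference -1.79), and that of Egr1 to Fos 0.09 ± 0.12 in OGD and 1.01 ± 0.32 in Control libraries (difference -0.92). In all 3 every OGD library was below every Control library (exact two-sided permutation p = 0.0286 each, adjusted p = 0.0381 over 4 ratios). No smaller p can come from 4 against 4 libraries, and it passes the adjustment only where at least 3 of the 4 ratios reach it. Both ratios to Jun mostly restate its rise (log2 difference 1.64), as Junb and Jund did not pass the test. They are thus not results separate from that of Jun. The log2 ratio of Fosl2 to Fos was -1.75 ± 0.17 in OGD and -2.54 ± 0.61 in Control libraries and did not pass (exact permutation p = 0.114, adjusted p = 0.114). Without Control replicate 2, in which Fosl2 was at 0.919 FPKM, its difference was 1.09 in place of 0.78 (adjusted p = 0.0286). As Fosl2 rests on 0 to 4 steps a library, this ratio on the FPKM + 1 scale is almost only the level of Fos (difference -0.88) and says nothing of Fosl2 relative to Fos.

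The levels of the 6 tested genes were also compared within groups. Across the 8 libraries, deviations from the group mean correlated most for Jund with Egr1 (r = 0.885) and Jun with Jund (r = 0.868), and least for Fosl1 with Junb (r = -0.698). Fos and Egr1, both of which fell, had an r of 0.024. These libraries share depth and scaling within each column, and the values are given as a description only. Across all 8 libraries, the genes most like Egr1 among 10347 named ones were Cdk8 (r = 0.999), a kinase of the Mediator complex, and Stat3 (r = 0.999), a transcription factor of cytokine signalling. Those most like Jun were Por (r = 0.998), the electron donor of cytochromes P450, and Alkbh5 (r = 0.994), an RNA demethylase. Those most like Fos were B4galt4 (r = 0.991), a galactosyltransferase, and Dnajb5 (r = 0.990), a cochaperone. Such values follow the group difference for the most part: 593 genes had an r of at least 0.95 with Egr1 and 471 with Jun. For Fosl1 the nearest were Bahd1 (r = 0.963) and Vps39 (r = 0.961), for Junb Chchd5 (r = 0.962) and Cks2 (r = 0.948), and for Jund Lss (r = 0.955) and Phf14 (r = 0.952).

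The counts of the gene lists that follow are to be read against the 22.7% of all tested genes that were higher and the 26.8% that were lower in OGD. Other bZIP factors, which can pair with JUN or FOS proteins or compete with them, include partners made under stress. Of 20 tested, 9 rose and 0 fell, with a median log2 difference of 0.32 against -0.04 over all tested genes. Jdp2, which encodes a repressor that dimerizes with JUN, averaged 60.2 ± 7.50 FPKM in OGD and 8.36 ± 1.14 FPKM in Control (log2 difference 2.71 ± 0.11 SE; limma, adjusted p = 3.93e-08). Ddit3, the stress factor CHOP, averaged 38.4 ± 5.17 FPKM in OGD and 6.00 ± 0.334 FPKM in Control. Atf3, a stress-induced partner of JUN named after its values were seen, averaged 3.03 FPKM in OGD and 0.318 FPKM in Control. It met the filter only through the OGD libraries, so its call, 1 of the 9, had to favour OGD.

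The EGR corepressors Nab1 and Nab2 both rose. Nab1 averaged 11.6 ± 0.783 FPKM in OGD and 6.74 ± 0.585 FPKM in Control, and Nab2 averaged 3.07 ± 0.512 FPKM in OGD and 2.10 ± 0.240 FPKM in Control (limma, adjusted p = 9.23e-05 and 0.0208). Egr3 and Egr4, the other EGR genes, were under the filter, with Egr3 at 0.268 FPKM in OGD and 0.259 FPKM in Control. Among the factors that act on CArG boxes and cAMP response elements, 7 of 11 rose and 1 fell, with a median of 0.32. Crebbp, the CREB coactivator, averaged 20.1 ± 1.69 FPKM in OGD and 12.9 ± 1.02 FPKM in Control, and the falling member was Elk3, an ETS partner of SRF, at 2.12 ± 0.0999 FPKM in OGD and 3.98 ± 0.425 FPKM in Control.

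In the MAP kinase cascade 9 of 21 rose and 2 fell, with a median of 0.05. The share called in either direction was near the 49.5% of all tested genes, so the count is no result about the cascade. Map2k6, an activator of p38, averaged 13.9 ± 0.787 FPKM in OGD and 7.44 ± 0.707 FPKM in Control. Rps6ka5, the kinase MSK1 that acts on CREB, averaged 5.01 ± 0.609 FPKM in OGD and 2.24 ± 0.178 FPKM in Control. The 2 that fell, named after their values were seen, were Map2k2 (-0.65), a kinase of ERK, and Rps6ka3 (-0.57), a kinase downstream of ERK. Of 14 feedback genes of these kinases, 3 rose and 6 fell (median -0.08). Dusp6, the ERK phosphatase, averaged 5.73 ± 0.816 FPKM in OGD and 22.8 ± 1.30 FPKM in Control, and Spry4, an inhibitor of receptor tyrosine kinase signalling, averaged 11.0 ± 1.67 FPKM in OGD and 30.9 ± 2.44 FPKM in Control. The 3 that rose, also named after their values were seen, were Dusp1 (1.02), Dusp8 (1.08) and Dusp16 (0.69), phosphatases of MAP kinases. The 5 that did not pass were Dusp4 (-0.27), Dusp5 (0.21), Dusp10 (0.32), Spry2 (0.08) and Spred3 (0.17).

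**Figure D4:**
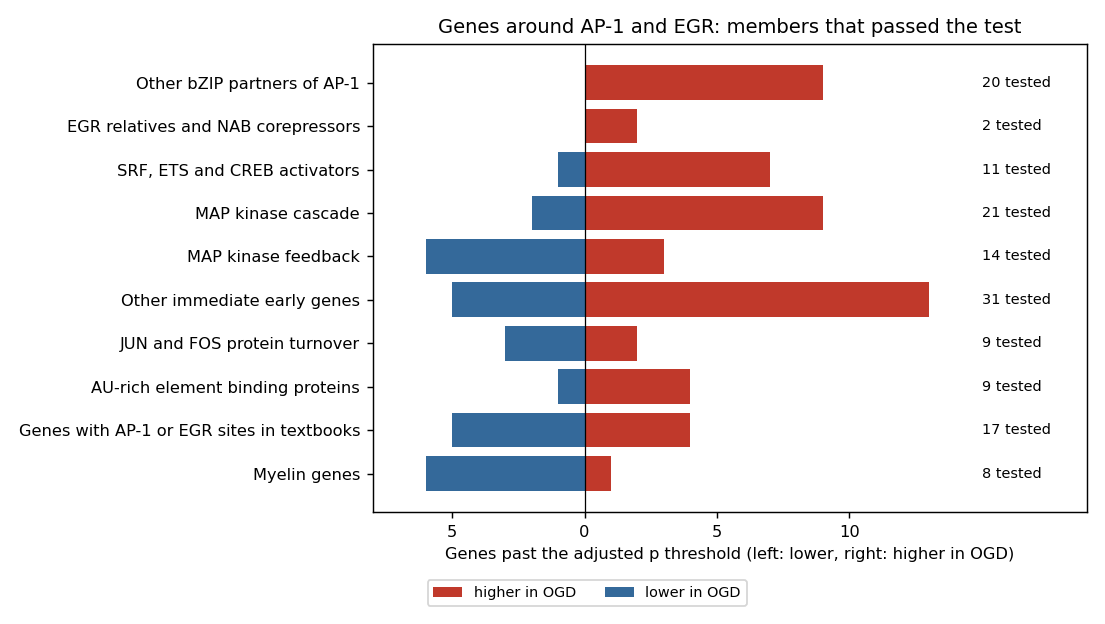
Number of genes of each list that passed the adjusted p threshold, to the right where higher in OGD than in Control and to the left where lower, with the number tested. Among other bZIP factors 9 of 20 were higher and 0 lower, and among MAP kinase feedback genes 3 of 14 were higher and 6 lower.

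Of 31 other immediate early genes tested, 13 rose and 5 fell (median 0.28), where 49.5% of all tested genes were called. Of these, 3 that rose (Atf3, Zfp36 and Csrnp1, named after their values were seen) met the filter only through OGD libraries and 1 that fell (Trib1) only through Control libraries, so their direction was set by the filter. Bhlhe40, a repressor, averaged 42.2 ± 7.27 FPKM in OGD and 1.85 ± 0.291 FPKM in Control, and Gadd45g, a growth arrest gene, averaged 36.4 ± 4.44 FPKM in OGD and 9.29 ± 1.05 FPKM in Control. The 5 that fell, named after their values were seen, were Rhob (-0.68), Sgk1 (-0.65), Per1 (-0.46), Gadd45b (-0.54) and Trib1 (-0.75).

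Of 9 tested genes that act on the turnover of JUN and FOS proteins, 2 rose and 3 fell, a share near that of all tested genes. Rfwd2, the ubiquitin ligase COP1 that targets JUN, averaged 61.4 ± 3.42 FPKM in OGD and 34.4 ± 2.96 FPKM in Control, and Itch, another JUN ligase, averaged 23.5 ± 2.21 FPKM in OGD and 14.7 ± 1.65 FPKM in Control. Cops5, the JUN coactivator JAB1, averaged 32.7 ± 5.19 FPKM in OGD and 41.1 ± 2.61 FPKM in Control (limma, adjusted p = 0.0181), and Senp1 (-0.59), a SUMO protease, also fell. Of 9 proteins that bind RNA elements which govern decay, 4 rose and 1 fell. Zfp36, tristetraprolin, which speeds the decay of mRNAs such as that of Fos, averaged 2.12 ± 0.562 FPKM in OGD and 0.763 ± 0.253 FPKM in Control. All its Control libraries were under 1 FPKM, so it was tested only because OGD libraries were higher. Zfp36l1 (0.35) and Tial1 (0.58) also rose, and Hnrnpd (-0.34) fell.

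Of 17 tested genes with well-known AP-1 or EGR sites, 4 rose (Hmox1 and Nab2 among them) and 5 fell (Ccnd1, Cd44, Tgfb1, Icam1 and Mt2A), with a median of -0.14; all but Ccnd1, Mt2A and Nab2 were named here after their values were seen. Both shares are near those of all tested genes (22.7% higher and 26.8% lower), so the counts are no result about AP-1 or EGR targets. Ccnd1, cyclin D1 of G1 progression, averaged 77.6 ± 8.33 FPKM in OGD and 196.3 ± 7.77 FPKM in Control. Mt2A, a metallothionein, averaged 4.96 ± 3.13 FPKM in OGD and 22.4 ± 3.82 FPKM in Control. Mmp3 and Mmp13, matrix proteases and textbook AP-1 targets, were listed at 0 in every library. Of 8 tested myelin genes 6 fell and 1 rose (Mog, 0.41), with a median of -0.76. Cnp, an enzyme of the myelin sheath, averaged 194.0 ± 8.21 FPKM in OGD and 358.9 ± 29.8 FPKM in Control.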

How the data were processed

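Strand-specific libraries were made from column-purified RNA, per the labels' protocols. The authors deposited 1 table of FPKM values, per the file headers, for 32662 genes in 4 OGD and 4 Control libraries. Trimmomatic, FastQC and the build rn6 (Rnor_6.0) are named in the submitters' processing notes. Not given in the sources used here were the aligner, the FPKM program and whether it used strand, so overlapping genes are uncertain. FPKM holds no counts, and a 0 can be a failed estimate.

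A gene entered the test if 4 or more libraries reached 1 FPKM. On log2(FPKM + 1), limma 3.58.1 (R 4.3.3; empirical Bayes with trend, group only) gave p-values, adjusted by Benjamini-Hochberg and called under 0.05. Fold changes on this scale understate changes of low genes. The procedure was tested on simulated data with far fewer changed genes than were called here. The changed genes all started at 5 FPKM or more, so the simulation does not cover lower genes. Ratios were compared by exact two-sided permutation over libraries. Relative depth came from genes of at most 0.5 FPKM, as the commonest ratio to Control replicate 1 (1200 to 1502 genes per library). List genes took the row with the highest mean. Named genes were the members, the 2 smallest p of each list or every member called where 5 or fewer were, and the 2 genes most like each tested member. Some genes named by this rule are not reported here. Members and lists were chosen with earlier results of these data known. Alternatives were quantile normalization, median-centring, rescaling outside mitochondrially encoded genes, a filter of 5 FPKM, no filter, no trend, a pseudocount of 0.1, a replicate block and left-out libraries; combinations with no filter were chosen after seeing the data. Python 3.11.15, pandas 2.3.3, numpy 2.4.6, scipy 1.17.1 and matplotlib 3.10.9 were used.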

Additional observations from a re-analysis of the deposited data

Results flagged for a closer look

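Among 94 groups of 4 libraries, 9 held a library with a wide gap to its 3 companions, and about 4.7 such groups would come by chance. None of these was a group of the 9 members. Elk3 was at 2.27 FPKM in OGD replicate 3, against 2.07 FPKM in each of the other OGD libraries. Map2k6 was at 15.1 FPKM in OGD replicate 1 and at 6.39 FPKM in Control replicate 3. Spry4 was at 13.5 FPKM in OGD replicate 3, against 10.0 to 10.3 FPKM in the other OGD libraries. Ccnd1 was at 184.7 FPKM in Control replicate 1, against 199.5 to 200.9 FPKM in the other Control libraries. Vps39 was at 20.3 FPKM in Control replicate 3, Por at 28.6 FPKM in OGD replicate 1, Alkbh5 at 12.8 FPKM in Control replicate 4 and Lss at 55.3 FPKM in Control replicate 3.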

How the results depend on the processing

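The differences of Jun, Egr1 and Fos kept their direction and their call under every alternative that tested them (1.57 to 1.76 for Jun over 17, -2.05 to -1.74 for Egr1 over 17 and -1.06 to -0.78 for Fos over 16). Of the 9 members 4 were called, 2 with a filter of 5 FPKM, which leaves out Fos, Fosl1 and Junb, 6 without a filter, and 3 to 4 when single libraries were left out. Jund lay on the other side of 0 with quantile normalization (0.0285), with rescaling outside mitochondrially encoded genes (0.0352) and when single libraries were left out (-0.0895 to 0.0872), never past the test. Fosl2 in the fit without a filter was at 0.0038 with a pseudocount of 0.1 and at -0.19 to 0.12 when single libraries were left out. The labels do not say whether the replicate numbers pair the libraries. Same-numbered deviations correlated at -0.222, 0.163, 0.011 and 0.090, which shows no pairing but cannot exclude it. OGD replicates 1 and 2 both correlated best with Control replicate 2 (0.184 and 0.163). OGD replicates 3 and 4 both correlated best with Control replicate 1 (0.037 and 0.221). With the replicate block 5509 genes were called in place of 5519, and 4 members. The ratios of Junb to Jun (-1.79), Jund to Jun (-1.64) and Egr1 to Fos (-0.92) have the same values in the replicate block, where 4 pairs cannot pass (adjusted p = 0.167). When single libraries were left out these ratios ranged from -1.90 to -1.68, -1.68 to -1.60 and -1.03 to -0.77, and that of Fosl2 to Fos from 0.65 to 1.09. Members under the filter have no value under the alternatives that keep it. Fragment numbers limit Fosb, Fosl2, Fosl1 and Egr2 most.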
